A study of Solanum lycopersicum with 6 samples.

Results

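The JAZ family encodes repressors of jasmonate signalling, and 10 of its tomato genes, JAZ1 to JAZ8, JAZ10 and JAZ11, were examined in seedling epicotyls, which are the stem between the cotyledons and the first leaves. They were chosen by gene identifier, which took all 11 of their probes out of 43803 non-control probes on the array, and 10 of 34527 genes with a tomato identifier. JAZ10 had 2 probes and each of the other 9 genes had 1. The deposited files give identifiers only, so each JAZ number here was assigned by the order of a list of the identifiers and was not checked against an annotation. Seedlings of the cultivar Managua RZ were grown for 7 d with a 16 h photoperiod at 30°C by day and 25°C by night in the positive DIF treatment, or at 25°C by day and 30°C by night in the negative DIF treatment, where DIF is day temperature minus night temperature. They were 14 d old and were collected within the light period, so the positive DIF seedlings were at 30°C and the negative DIF seedlings at 25°C at harvest. Each treatment had 3 arrays, 1 per biological replicate. The number of seedlings pooled per replicate is not given in the sources used here.

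Jasmonates are lipid-derived hormones best known for responses to wounding and insect feeding, and they also restrain the growth of stems and leaves. As worked out mainly in Arabidopsis and tomato, JAZ proteins bind MYC-type transcription factors at low hormone levels and, through the adaptor NINJA, bring the co-repressor TOPLESS to their targets. The active hormone, jasmonoyl-isoleucine, joins a JAZ protein to the F-box receptor COI1, and the JAZ protein is then degraded. JAZ genes are themselves targets of the MYC factors, and many JAZ transcripts rise after jasmonate or wounding.

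Of the 10 genes, JAZ7 was the only member whose difference between the treatments passed the unadjusted test, with a signal 2.33-fold lower under negative DIF than under positive DIF (95% interval 1.70 to 3.20, n = 3 arrays per treatment). It did not pass after adjustment over all probes. JAZ4 was lower by 0.64 on the log2 scale, which did not pass the test, and JAZ6 was at nearly the same level on all 6 arrays. For JAZ1, JAZ2, JAZ3, JAZ5 and JAZ10 no difference could be told from the spread between replicates. JAZ8 and JAZ11 were not well above background on any array.

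Signals are given in 2 ways. The processed signal is the background-subtracted brightness of the spot on a linear scale, as the scanner software wrote it. The log2 relative signal is log2 of the processed signal minus the 75th percentile of log2 signals on that array, and all fold changes and tests use it, with negative DIF relative to positive DIF. A probe is called well above background where the scanner software set that flag, and measured where it has the flag on all 3 arrays of one treatment or of both. Brightness differs between probes for reasons other than transcript number, so no level is set against that of another probe. Each treatment difference was tested with limma over all 43803 probes with Benjamini-Hochberg adjustment. In bulk tissue, fewer cells of a type and less RNA per cell cannot be told apart.

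Between 62.2% and 67.0% of probes were well above background on each array, none was saturated, and no JAZ spot was flagged as non-uniform. Negative DIF replicates 1 and 2 were on slide 1, and the other 4 arrays, which include negative DIF replicate 3, were on slide 2. All 9 probes of the 6 loci listed for leaf or photosynthetic tissue were well above background on all arrays, with a mean log2 relative signal between 5.55 and 6.25 per array. Both loci listed for the shoot apex and stem were also well above background on all arrays.

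In limma 0 of the 11 JAZ probes had an adjusted p under 0.05, while 0.92% of all probes did (0.425% rose and 0.495% fell under negative DIF). Without adjustment, at p under 0.05, 0 JAZ probes were higher and 1 was lower in limma, the probe of JAZ7. Among all probes 10.2% were higher and 8.72% lower at that threshold, 18.9% in all, so the share of JAZ probes, 9.09%, was not above the background. The median log2 fold change was -0.14 over the 9 JAZ probes that were measured, 2 of which are of JAZ10. It was 0.04 over the probes left after removal of dim ones, and 0.07 over all probes, dim ones included. The probes of JAZ8 and JAZ11, at background, are left out of the JAZ median. In 2 of the 10 genes, JAZ4 and JAZ7, all 3 negative DIF arrays lay below all 3 positive DIF arrays, and in no JAZ probe did they lie above. Across all probes the arrays of the treatments did not overlap in 27%, with 12.4% below and 14.6% above.

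**Figure D1:**
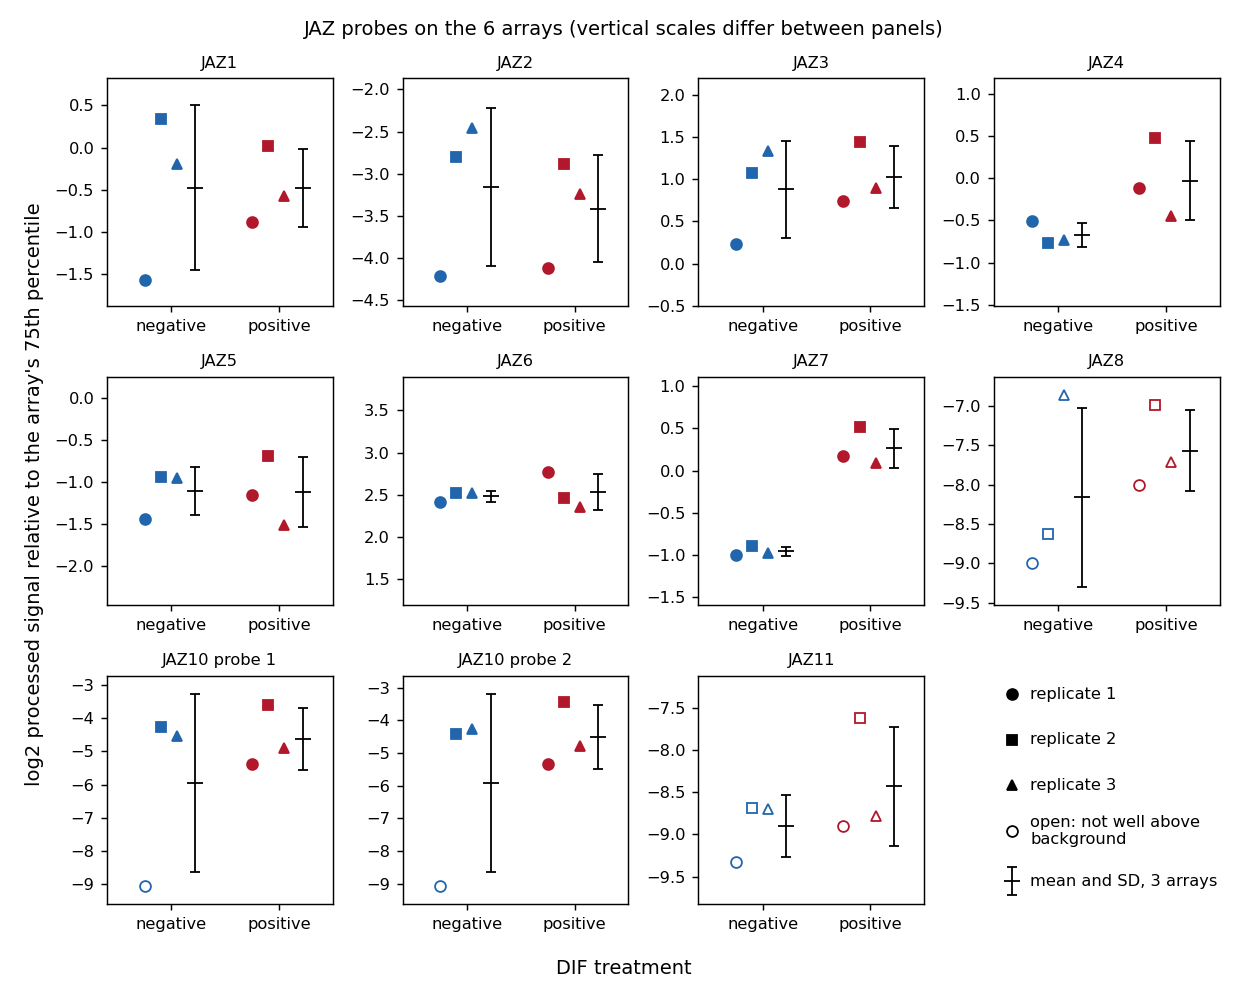
Log2 processed signal relative to the 75th percentile of the array (vertical axis, log2 units, scales differ between panels) for the 11 JAZ probes on the 3 negative DIF (blue) and 3 positive DIF (red) arrays, with symbols for replicates, open symbols where the probe was not well above background, and the mean and SD of 3 arrays in black. JAZ7 shows 2 separate groups of points, while for JAZ1, JAZ2, JAZ3 and JAZ10 the points of both treatments overlap and negative DIF replicate 1 is the lowest of its treatment.

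JAZ7 (Solyc11g011030, on chromosome 11 by its identifier) was well above background on every array. The processed signal was 1211, 1019 and 798 on negative DIF replicates 1, 2 and 3. It was 1672, 2230 and 1572 on positive DIF replicates 1, 2 and 3. Every negative DIF array was below every positive DIF array, both in processed signal and after scaling. The log2 relative signal averaged -0.96 ± 0.05 (SD, n = 3) on the negative DIF arrays and 0.26 ± 0.23 (SD, n = 3) on the positive DIF arrays. This gave a log2 fold change of -1.22 with a standard error of 0.19, with an unadjusted p = 0.00055 and an adjusted p = 0.053 in limma. Each negative DIF array lay within 0.06 of the mean of its treatment on the log2 scale.

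JAZ7 was lower in each of the 16 other settings run, by a log2 fold change between -1.31 and -1.07, and its unadjusted p was at most 0.0084. The adjusted p lay between 0.011 and 0.455 and passed the threshold in 6 settings, all of which used the 6 arrays. With slide as a fixed block, where only negative DIF replicate 3 shares a slide with positive DIF arrays, the fold change kept its size at -1.24 on the log2 scale, with limma's unadjusted p = 0.0084 and its adjusted p = 0.455. An exact permutation test of 3 arrays against 3 gave a two-sided p of 0.1, the smallest this design allows. Of the 2 loci listed for the shoot apex and stem, Solyc04g077210 was also lower at the unadjusted threshold, by a log2 fold change of -0.95 (limma, unadjusted p = 0.0015, adjusted p = 0.066). The other, Solyc02g081120, was at -0.51 and did not pass (limma, unadjusted p = 0.25). Of the 9 probes listed for leaf tissue, 1 was higher (11.1%) and 0 were lower at that threshold. Among all probes 10.2% were higher and 8.72% lower, so the leaf share was near the background. The part of tissue makeup in the JAZ7 difference was not tested.

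JAZ4 (Solyc12g049400, chromosome 12) was also lower under negative DIF on average. The processed signal of JAZ4 was 1695, 1116 and 943 under negative DIF and 1363, 2161 and 1083 under positive DIF. These ranges overlapped, and the treatments separated only after each array was scaled to its 75th percentile. The log2 relative signal was then -0.67 ± 0.14 (SD, n = 3) against -0.03 ± 0.47 (SD, n = 3). JAZ4 had a log2 fold change of -0.64 with a standard error of 0.27 (limma, unadjusted p = 0.056, adjusted p = 0.278). JAZ4 passed the unadjusted threshold in limma on the deposited values, with normexp, without dim probes, with trend and robust estimation and with a random block for slide, with log2 fold changes between -0.69 and -0.62, and its adjusted p there was at least 0.122. Positive DIF replicate 2 was the highest array, and without it the value moved to -0.39 (limma, adjusted p = 0.488). Without positive DIF replicate 3, the lowest of its treatment, it moved to -0.85 (limma, unadjusted p = 0.020, adjusted p = 0.219).

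**Figure D2:**
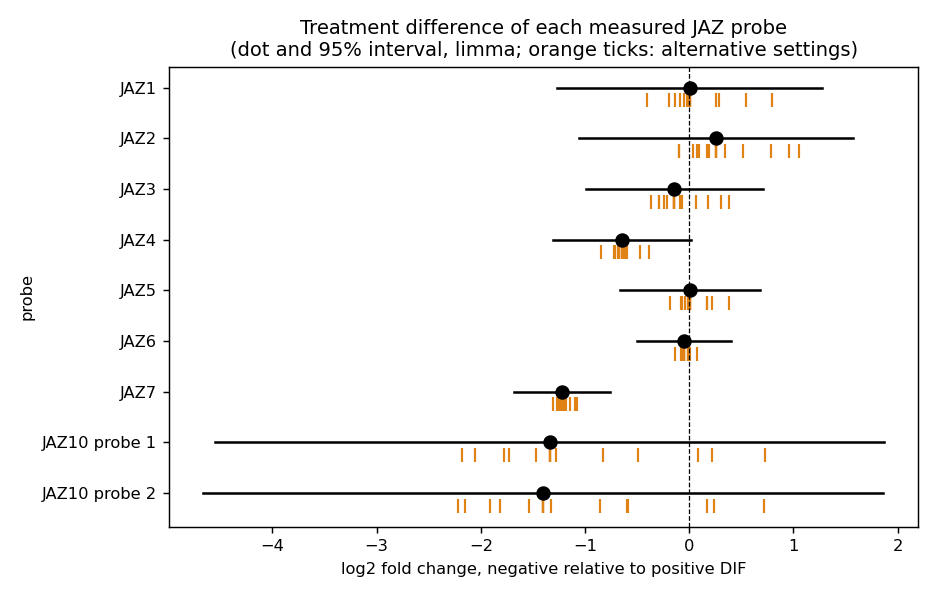
Log2 fold change of negative relative to positive DIF (horizontal axis) for each of the 9 measured JAZ probes (vertical axis), as the fitted value and its 95% interval from limma, with the values under the alternative settings as orange ticks. The interval of JAZ7 runs from -1.68 to -0.76, and the intervals of the other 8 probes include 0.

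JAZ6 (Solyc01g005440, chromosome 1) was the steadiest member. Processed signals of 12839, 10868 and 9002 were measured under negative DIF and of 10103, 8563 and 7564 under positive DIF. After scaling, all 6 arrays lay within 0.41 on the log2 scale. JAZ6 had a log2 fold change of -0.05 with a 95% interval of -0.50 to 0.40 (limma, adjusted p = 0.907). The SD within treatments was 0.16, and 81.0% of the 26941 measured probes had an SD at least as large.

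JAZ5 (Solyc03g118540, chromosome 3) showed no treatment difference beyond its spread. Under negative DIF the 3 arrays read 892, 989 and 815 in processed signal, and under positive DIF they read 667, 963 and 518. The treatments overlapped. For JAZ5 the log2 fold change was 0.01 with a 95% interval of -0.67 to 0.68 (limma, adjusted p = 0.991), a wider interval than that of JAZ6.

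JAZ1 (Solyc07g042170, chromosome 7) varied several times more between replicates than JAZ6. Processed signals were 817, 2397 and 1373 on negative DIF replicates 1, 2 and 3, and 804, 1578 and 989 on positive DIF replicates 1, 2 and 3. Each treatment held a low replicate 1 and a high replicate 2. Treatment means of the log2 relative signal were -0.48 ± 0.98 (SD, n = 3) for negative DIF and -0.48 ± 0.46 (SD, n = 3) for positive DIF. The fitted difference was 0.00 on the log2 scale with a 95% interval of -1.27 to 1.27 (limma, adjusted p = 0.998), so a sizeable change in either direction was not detectable with these arrays.

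JAZ2 (Solyc12g009220, chromosome 12) was also low on replicate 1 of each treatment. Its arrays gave processed signals of 130, 273 and 287 under negative DIF and 85.7, 211 and 156 under positive DIF, with overlap between the treatments. Limma fitted a log2 fold change of 0.25 with a standard error of 0.54 and an adjusted p = 0.904.

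JAZ3 (Solyc03g122190, chromosome 3) had the same low arrays with a smaller spread. For this gene the negative DIF arrays read 2843, 3997 and 3954 in processed signal and the positive DIF arrays 2475, 4204 and 2743. Limma fitted a log2 fold change of -0.14 with a standard error of 0.35 and an adjusted p = 0.904. Within treatments the SD was 0.77 for JAZ1, 0.80 for JAZ2 and 0.48 for JAZ3, against a median of 0.28 over the 26941 measured probes. SDs at least as large as those of JAZ1, JAZ2 and JAZ3 were found in 9.85%, 8.80% and 24.5% of these probes.

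JAZ10 (Solyc08g036620, chromosome 8) had the widest spread of the measured members, on both of its probes. On probe 1 the processed signal was 4.50, 98.6 and 67.8 on negative DIF replicates 1, 2 and 3 and 35.4, 130 and 50.1 on positive DIF replicates 1, 2 and 3. On probe 2 it was 4.50, 88.8 and 80.9 under negative DIF and 36.5, 144 and 53.4 under positive DIF. Both probes were well above background on all arrays except negative DIF replicate 1, where the lowest signal well above background of any probe was 18.5. The value on that array is therefore only a bound. The fit gave a log2 fold change of -1.34 with a standard error of 1.33 on probe 1 and of -1.40 with a standard error of 1.35 on probe 2, with adjusted p-values of 0.679 and 0.667 from limma. Without negative DIF replicate 1 these values turned to 0.22 and 0.17. Both probes carried the same pattern, and they differed by at most 0.26 on the log2 scale on any array.

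JAZ8 (Solyc06g068930, chromosome 6) and JAZ11 (Solyc08g036660, chromosome 8) had no array with a signal well above background. The processed signal of JAZ8 ran from 4.73 to 13.5 and that of JAZ11 from 3.11 to 7.91. No fold change is given for these 2 genes, and a difference between treatments was not detectable at this signal.

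**Figure D3:**
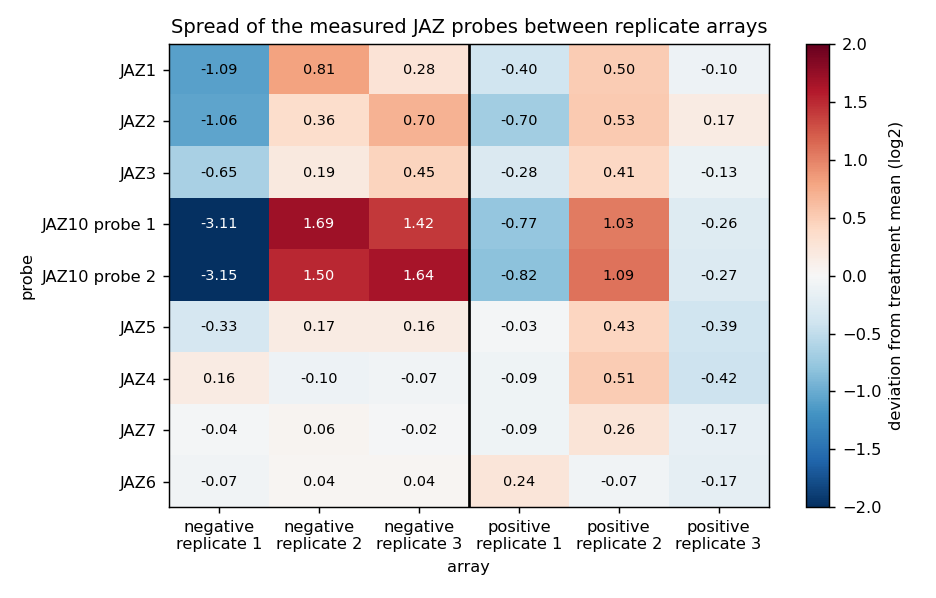
Deviation of each array from the mean of its treatment (colour and printed values, log2 units, colour limited to 2 in either direction) for the 9 measured JAZ probes, with arrays on the horizontal axis and probes on the vertical axis. Negative DIF replicate 1 stands at -1.09 for JAZ1, -1.06 for JAZ2 and -0.65 for JAZ3 and lowest for JAZ10, and positive DIF replicate 2 is above its treatment mean for every probe except that of JAZ6.

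Several JAZ probes shared the order of the replicate arrays. Among the 9 measured probes, negative DIF replicate 1 was the lowest array of its treatment in 8, all but JAZ4, and positive DIF replicate 2 was the highest of its treatment in 8, all but JAZ6. Both held for 7 of the 9 probes, against 11.2% of the 26941 measured probes. The 7 include both probes of JAZ10, so that gene is counted more than once. These counts describe the 6 arrays, were made after the values were seen and carry no test. JAZ7 had this order too, with deviations from the treatment means of at most 0.26 on the log2 scale.

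When negative DIF replicate 1 and positive DIF replicate 2 were both left out, a setting chosen after seeing the data, JAZ1 and JAZ2 were higher under negative DIF at the unadjusted threshold. JAZ1 had a log2 fold change of 0.80 (limma, unadjusted p = 0.0498, adjusted p = 0.377), and JAZ2 one of 1.05 (limma, unadjusted p = 0.0488, adjusted p = 0.374). In this setting 6.07% of all probes were higher at the unadjusted threshold. JAZ7 stayed lower at -1.07 (limma, unadjusted p = 0.0057, adjusted p = 0.179). The arrays left out were chosen because they stood apart for these genes, so the values show how far JAZ1 and JAZ2 rest on single arrays and are not evidence of a difference.

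In a list of 12 loci for the jasmonate-induced wound response, positive DIF replicate 2 was the highest of the 6 arrays for 6 of 12 probes, against 12.6% of all probes. Of the 5 wound response probes that were measured, it was the highest for 2, and so was negative DIF replicate 1 for 2. Among all measured probes these arrays were the highest for 15.2% and 23.6%. The replicate order shared by the JAZ probes held for 0 of these 5. The 3 loci that follow were chosen after their values were seen. Solyc12g010020 had a processed signal of 1061 on positive DIF replicate 2, of 27.1 and 17.7 on the other positive DIF arrays and between 108 and 162 under negative DIF. Solyc09g008670 stood at 462 on positive DIF replicate 2 and between 3.08 and 7.50 on the other 5 arrays, where it was not well above background. Solyc03g020060 stood at 510 on positive DIF replicate 2 and at 18.5 on positive DIF replicate 1, and was not well above background on the remaining arrays. Other loci of the list did not share this, such as Solyc08g074630, which read 6054 on positive DIF replicate 2 and 60294 on negative DIF replicate 1. The part of these loci in the JAZ values was not tested.

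The remaining jasmonate loci were taken from 4 lists, 37 genes with 39 probes in all, and 0 of their probes had an adjusted p under 0.05 in limma. At an unadjusted p under 0.05, 7 were higher and 1 was lower, or 20.5% of the 39 probes, close to the 18.9% of all probes. The deposited files do not pair loci with names, so loci are given by identifier, and a description is added only where the study's tables give it.

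The 8 loci listed as partners of JAZ proteins, for the receptor, the MYC factors, NINJA, TOPLESS and related factors, were all well above background on all arrays, and 0 passed the unadjusted threshold in limma. On the log2 scale Solyc05g052620, Solyc05g050560 and Solyc06g083980 stood at 0.28, 0.25 and 0.22 and Solyc03g117360 at 0.01. Below 0 were Solyc08g005050 at -0.28, Solyc08g076930 at -0.25, Solyc01g096050 at -0.20 and Solyc05g018320 at -0.10. The smallest adjusted p among the partners was 0.517 from limma, for Solyc05g050560. In 4 of these 8 probes negative DIF replicate 1 was the lowest and positive DIF replicate 2 the highest of its treatment, against 11.2% of the measured probes. Among measured probes of the other jasmonate lists this order held for 4 of 10 for synthesis, 0 of 4 other ZIM-domain probes and 0 of 5 for the wound response. Outside these lists it held for 2 of 2 probes listed for the shoot apex and stem. It also held for 1 of 1 listed for a phloem sucrose transporter, and for 0 of 9 listed for leaf tissue.

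Of the 5 other loci of the ZIM-domain group, Solyc09g065630 was higher under negative DIF at the unadjusted threshold, with a log2 fold change of 0.66 (limma, adjusted p = 0.184), and 0 were lower. This is 1 of 5 probes, beside 10.2% higher and 8.72% lower among all probes. Solyc08g036640, whose identifier lies between those of JAZ10 and JAZ11 and which was picked after its values were seen, had processed signals of 3.71, 23.5 and 22.2 under negative DIF and 10.7, 45.9 and 20.2 under positive DIF. Positive DIF replicate 2 was the highest of these arrays, as for JAZ10, and the probe was not well above background on replicate 1 of either treatment. Whether the probes of these neighbours bind each other's transcripts was not tested.

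Among the 14 probes of 12 loci listed for jasmonate synthesis, 3 were higher and 1 was lower at an unadjusted p under 0.05, beside 10.2% higher and 8.72% lower among all probes. The 3 higher probes came from 2 loci, Solyc01g009680 with 2 probes and Solyc01g006540, which was well above background on 1 array. The smallest p was that of Solyc08g014000, described as a lipoxygenase. Whether this lipoxygenase acts in jasmonate synthesis was not checked. Solyc08g014000 had processed signals of 160, 125 and 361 under negative DIF and of 935, 3418 and 2063 under positive DIF. Every negative DIF array was below every positive DIF array. The difference was -3.64 on the log2 scale with a standard error of 0.66 (limma, adjusted p = 0.063). Solyc01g009680, also described as a lipoxygenase, was higher at the unadjusted threshold on 2 of its 3 probes, with log2 fold changes of 1.89 and 1.57 (limma, adjusted p = 0.166 and 0.131), while the other probe had no array with a signal well above background. It was picked for its direction, after its values were seen.

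In the wound response list 3 probes were higher and 0 were lower at the unadjusted threshold, beside 10.2% and 8.72% of all probes. Of the 12 probes, 7 were not measured. The higher probes included those of Solyc08g074620 and Solyc08g074630, which have neighbouring identifiers. Whether these probes bind each other's transcripts was not tested. The other higher probe, of Solyc09g089510, was well above background on only 1 positive DIF array. The smallest p was that of Solyc08g074630, which was higher by a log2 fold change of 2.42 with a standard error of 0.39 (limma, adjusted p = 0.054).

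**Figure D4:**
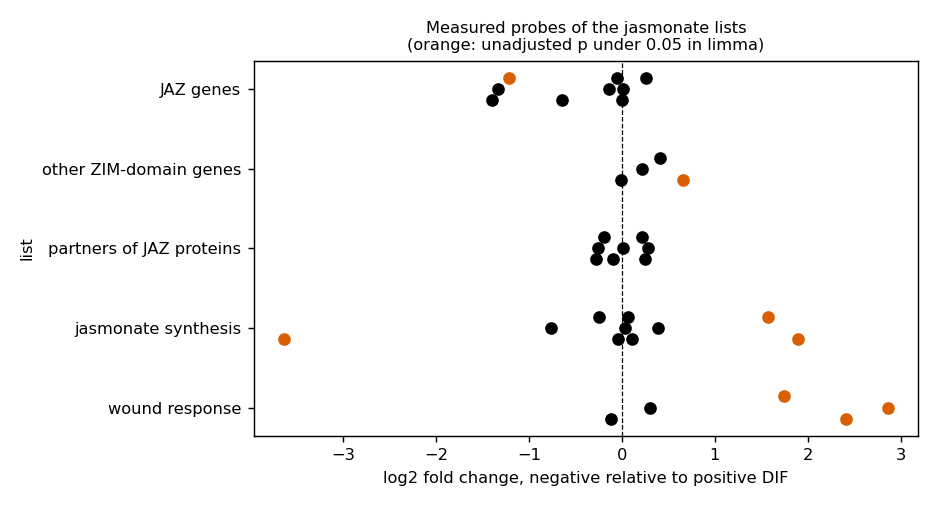
Log2 fold change of negative relative to positive DIF (horizontal axis) for every measured probe of the JAZ genes and of the 4 other jasmonate lists (rows), with orange for an unadjusted p under 0.05 in limma. The partners of JAZ proteins lie between -0.28 and 0.28, while the synthesis list reaches from -3.64 to 1.89 and the wound response list up to 2.87.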

How the data were processed

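Epicotyl RNA was labelled with a single dye and hybridised to a custom tomato Agilent array. The authors deposited spot intensity values of 6 arrays from Agilent Feature Extraction 10.10.1.1, background-subtracted within each array. They also deposited normalized log2 values, 1 row for each of 33614 genes, whose normalization is not given in the sources used here. In that table the column headings and the scanner files disagree on the treatment: each column has the rank order of an array of the treatment it does not name. Columns were assigned as in the study's supplementary tables.

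Control spots and non-uniform spots were left out, and log2 processed intensities were centred on the 75th percentile of their array, with no filter on dim probes. Limma 3.58.1 (lmFit, eBayes), run in R 4.3.3, compared negative with positive DIF in a model that held treatment alone, and p-values were adjusted over all 43803 probes by Benjamini-Hochberg. The scripts were tested on simulated data. Summaries were made with pandas 2.3.3 and scipy 1.17.1 under Python 3.11.15, and plots with matplotlib 3.10.9.

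All probes of the 10 genes were described. From each of the other jasmonate lists the locus with the smallest p was named, and the partners of JAZ proteins were named in full. Members and lists were chosen with earlier results of these data known. Probe and protein sequences were not used here. The alternatives were quantile normalization, the deposited values, normexp on median signals with an offset of 50, removal of dim probes, moderation with trend and robust estimation, Student's test without moderation, blocks for slide (fixed or random) and for replicate number, and single arrays left out. A setting without 2 of the arrays was added later. The number of arrays limits the precision.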

Additional observations from a re-analysis of the deposited data

How the results depend on the processing

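The count of JAZ probes lower under negative DIF at an adjusted p under 0.05 rose from 0 to 1, JAZ7, in 6 settings, which were quantile normalization, the deposited log2 values, normexp, removal of dim probes, moderation with trend and robust estimation, and a random block for slide. Among all probes the lower ones at that threshold rose in these settings too, from 217 of 43803 to between 695 with quantile normalization and 1527 with the random block. The deposited values held 33614 rows, and 26942 probes were left without dim ones. No JAZ probe was higher at that threshold in any setting, and leaving out each array in turn left both JAZ counts at 0. Student's test without moderation gave 0 at the adjusted threshold and 1 lower, 0 higher without adjustment. The random block for slide had a negative correlation (-0.22), so its errors are narrower and it is not a stricter test. At an unadjusted p under 0.05 the count of lower JAZ probes rose from 1 to 2 in the same settings other than quantile normalization, where JAZ4 was the second, and ran from 1 to 2 with each array left out. The second was JAZ4 without positive DIF replicate 3, and JAZ8, whose signal is at background, without negative DIF replicate 3. Of all 43803 probes, 3318 and 3307 were lower at that threshold in these 2 settings. In the settings with all 6 arrays where JAZ4 was the second, the share of all probes past that threshold rose from 18.9% to between 20.6% and 29.2%. The cause of these changes was not tested.

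JAZ4 and JAZ7 kept their direction in all alternatives. With each array left out, the log2 fold change ran from -0.40 to 0.55 for JAZ1, -0.10 to 0.78 for JAZ2, -0.37 to 0.18 for JAZ3, -0.19 to 0.22 for JAZ5, -0.14 to 0.070 for JAZ6, and -2.18 to 0.22 and -2.22 to 0.17 for the JAZ10 probes. JAZ1 turned to -0.0097 with quantile normalization, -0.022 on the deposited values, -0.0073 with normexp and -0.084 with the random block, and JAZ5 to -0.0058, -0.0071 and -0.042 in the last 3. JAZ6 was at 0.0078 on the deposited values. When slide was a fixed block JAZ3 was at 0.31 and the JAZ10 probes at 0.082 and 0.24. With negative DIF replicate 1 and positive DIF replicate 2 left out, the higher JAZ probes at an unadjusted p under 0.05 numbered 2. These were JAZ1 at 0.80 and JAZ2 at 1.05, while 6.07% of all probes were higher at that threshold. In that setting JAZ3 was at 0.38, JAZ5 at 0.39 and the JAZ10 probes at 0.73 and 0.72. JAZ10 probe 1 had no row of its own in the deposited values. JAZ8 and JAZ11, at background on all arrays, were fitted and enter the counts of JAZ probes, but their fold changes are not printed.

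For the 4 other jasmonate lists, probes higher at an adjusted p under 0.05 rose from 0 to 1 on the deposited values, to 2 with normexp, without dim probes or with trend and robust estimation, and to 4 with the random block, and lower ones from 0 to 1 in these 5 settings. Among all probes, higher ones rose in these 5 settings from 186 to between 889 and 1490, and lower ones from 217 to between 921 and 1527. Leaving out each array gave 0 higher and 0 to 1 lower list probes. At the unadjusted threshold higher list probes fell from 7 to 3 when slide was a fixed block, where the higher share of all probes fell from 10.2% to 3.88%. With each array left out, higher list probes ran from 5 to 8. Lower list probes rose from 1 to 4 with normexp, where lower ones among all 43803 probes rose from 3820 to 6358. Lower list probes rose to 2 in the other 4 of the 5 settings and without the 2 arrays. Among all probes the lower ones then numbered 4321 of 33614 on the deposited values and 3728 of 26942 without dim probes. They numbered 4159 with trend and robust estimation, 5398 with the random block and 3149 without the 2 arrays. With each array left out lower list probes ran from 1 to 2, and lower ones among all probes from 2802 to 3527.

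Deviations from the treatment means had correlations of 0.04, 0.06 and 0.22 between same-numbered arrays, and of -0.31 to 0.27 between arrays of different number. Each mean is of only 3 arrays, which ties these correlations to each other, so they cannot decide whether the numbers pair the arrays. With the replicate block JAZ7 was at -1.22 (adjusted p = 0.125 from limma). The unadjusted lower count of the 4 lists was 3, beside 3377 among all 43803 probes. The probes past the adjusted threshold among all probes fell from 403 to 0 with this block. Their number was 0 also when slide was a fixed block and without negative DIF replicate 1. Normexp moved the median log2 fold change of all probes from 0.07 to -0.20. Signal near background limits JAZ8, JAZ11 and the value of JAZ10 on negative DIF replicate 1.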
